A study of Mus musculus with 4 samples.

Results

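Podxl, Ncam2, Enah, Clu, Timp3 and Col18a1 are 6 genes of cell adhesion, actin assembly and the extracellular matrix, described here in blood progenitors of mice with and without leukemia. They were chosen, from 13978 genes measured, because their transcripts were higher in progenitors taken from leukemic mice, over all cells or in cells with stem cell markers. Differences between the groups in these genes are therefore a description, and no test is made of them. The B-ALL environment group (B-ALL marrow in the text) was wild-type CD45.1 mice that had received, by tail vein, 150000 tumor cells from the lymph node of a leukemic mouse with the genotype Cd45.2+/+Ebf1+/-Pax5+/-. B-ALL is B-cell acute lymphoblastic leukemia, and all tumor cells came from 1 donor mouse, LN768. The PBS control group (PBS marrow in the text) was wild-type CD45.1 mice given phosphate-buffered saline. After 3 weeks, host bone marrow cells that were KIT+, free of lineage markers, CD45.2- and CD45.1+ were sorted from both groups and sequenced with the 10x Genomics 3' kit, which counts unique molecular identifiers (UMIs) near the end of each transcript. Age, sex and the number of mice per sample are not given in the sources used here.

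Podxl encodes podocalyxin, a sialomucin of the CD34 family that is linked to actin through ezrin and NHERF adaptors and is known on podocytes, vessel lining and blood stem cells. Ncam2 encodes a homophilic adhesion molecule of the immunoglobulin family, best known in olfactory neurons. Enah encodes an Ena/VASP protein that promotes growth of actin filaments at the leading edge. Clu encodes clusterin, a secreted chaperone that is also stored in platelets. Timp3 encodes an inhibitor of metalloproteinases that stays bound to the matrix and acts on ADAM17 among others, and Col18a1 encodes collagen XVIII, a basement membrane collagen from which endostatin is cut. Blood stem cells rest in a niche of vessels, stroma and megakaryocytes, and adhesion and matrix proteins take part in holding them there. Stem cells with Vwf transcripts, which encode von Willebrand factor, are known to be biased toward platelets.

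The 6 genes lie on 5 chromosomes (GRCm38, GENCODE annotation). Podxl lies on chromosome 6 (31519488 to 31563981, minus strand) and Ncam2 on chromosome 16 (81200697 to 81626828, plus strand). Enah lies on chromosome 1 (181896384 to 182019990, minus strand) and Clu on chromosome 14 (65968483 to 65981547, plus strand). Timp3 (86300372 to 86349506, plus strand) and Col18a1 (77052178 to 77166548, minus strand) are both on chromosome 10. Timp3 overlaps Syn3, and Col18a1 overlaps Slc19a1, each on the opposite strand. Whether the counting used strand is not given in the sources used here, so reads of these overlapping genes may not be told apart.

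Promoters are shown for Ncam2, Enah, Timp3 and Col18a1, the 4 of the 6 genes that were matched in the promoter table, so that their base content and motifs can be set side by side. Podxl and Clu were not matched. The windows run from 250 bases before to 50 after a transcript start (RefSeq, GRCm38.p6), 5' to 3', and capitals mark GC boxes, GGGCGG or its reverse CCGCCC, which may overlap each other.
Ncam2, chr16:81200447-81200746, plus strand: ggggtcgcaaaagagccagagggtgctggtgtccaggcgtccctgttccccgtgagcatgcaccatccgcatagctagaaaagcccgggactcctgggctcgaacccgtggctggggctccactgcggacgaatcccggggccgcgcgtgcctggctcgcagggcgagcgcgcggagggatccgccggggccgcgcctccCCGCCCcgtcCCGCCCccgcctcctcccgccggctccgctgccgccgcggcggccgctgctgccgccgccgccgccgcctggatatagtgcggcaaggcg
Enah, chr1:182019931-182020230, minus strand: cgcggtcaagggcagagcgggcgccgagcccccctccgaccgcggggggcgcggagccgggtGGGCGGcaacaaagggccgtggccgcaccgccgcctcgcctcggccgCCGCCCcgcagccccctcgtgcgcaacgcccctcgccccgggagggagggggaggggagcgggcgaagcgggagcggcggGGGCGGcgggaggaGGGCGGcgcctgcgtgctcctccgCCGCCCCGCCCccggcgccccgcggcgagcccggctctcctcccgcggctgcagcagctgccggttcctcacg
Timp3, chr10:86300162-86300461, plus strand: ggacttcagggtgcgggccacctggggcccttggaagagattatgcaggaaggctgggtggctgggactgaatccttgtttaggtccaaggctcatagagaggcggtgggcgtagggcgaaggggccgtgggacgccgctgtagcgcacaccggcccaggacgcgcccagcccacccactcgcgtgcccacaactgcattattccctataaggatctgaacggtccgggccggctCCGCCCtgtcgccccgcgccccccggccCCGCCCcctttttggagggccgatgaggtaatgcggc
Col18a1, chr10:77166481-77166780, minus strand: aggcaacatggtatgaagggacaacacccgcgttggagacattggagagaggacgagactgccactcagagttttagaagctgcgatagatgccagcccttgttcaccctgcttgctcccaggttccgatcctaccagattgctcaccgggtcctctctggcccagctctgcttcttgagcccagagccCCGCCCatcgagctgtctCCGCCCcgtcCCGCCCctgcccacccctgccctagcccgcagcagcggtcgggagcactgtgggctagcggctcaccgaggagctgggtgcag
Each of these 4 windows held GC boxes, 2 in Ncam2, 6 in Enah, 2 in Timp3 and 3 in Col18a1, and 35.7% of the 32851 promoters in the table held at least 1. Their GC content was 75.7% in Ncam2, 83.3% in Enah, 67.0% in Timp3 and 63.3% in Col18a1, against a median of 52.7% over the table. A STAT motif (TTCNNNGAA, read on both strands), present in 8.30% of promoters, a GATA motif (AGATAA or TTATCT), in 11.2%, and a RUNX motif (TGTGGT or ACCACA), in 16.8%, had no match in these 4 windows. A second Col18a1 start, at chr10:77113656-77113955, had no GC box and 1 RUNX match.

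The matrix held 5882 cells per group, with 76059014 UMIs and a median of 10458 per cell in B-ALL marrow, and 68391214 UMIs and a median of 10189 per cell in PBS marrow. The labels list 2 samples for each group, yet no cell can be tied to its sample, so each group counted as 1 sample. There is no spread between mice to set a difference against and no p-value, and all intervals are at 95% and cover counting error only. Between the groups 18 cell barcodes were shared. Levels are CPM, the UMIs of a gene relative to all UMIs of the cells summed, after TMM scaling, and folds are B-ALL marrow over PBS marrow. Transcripts of Kit, the receptor used in the sort, stood at 206 CPM in B-ALL marrow and 370 CPM in PBS marrow, and those of Ptprc, which encodes CD45 of both alleles, at 176 CPM in B-ALL marrow and 148 CPM in PBS marrow.

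Cells were placed in 8 progenitor types by UMIs of marker genes, none of them among the 6 genes. HSC-like cells, with markers of the hematopoietic stem cell (Hlf, Mecom, Procr and others), numbered 1109 in B-ALL marrow and 160 in PBS marrow. Megakaryocyte-like cells numbered 645 in B-ALL marrow and 459 in PBS marrow, and erythroid-like cells 134 in B-ALL marrow and 1206 in PBS marrow. A type is a range on a score and not a sharp class: 225 of 1269 HSC-like cells and 170 of 1104 megakaryocyte-like cells lay near a boundary. HSC-like cells had a median of 12 UMIs of HSC markers and 1 of megakaryocyte markers, while megakaryocyte-like cells had a median of 4 of HSC markers and 16 of megakaryocyte markers. Cells given no type numbered 1615 in B-ALL marrow and 1085 in PBS marrow. The median depth of HSC-like cells was 7677 UMIs in B-ALL marrow and 6049 in PBS marrow, and that of megakaryocyte-like cells 13040 in B-ALL marrow and 7866 in PBS marrow. Shares of cells with a UMI are therefore also given after each cell was thinned to 3000 UMIs.

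**Figure D1:**
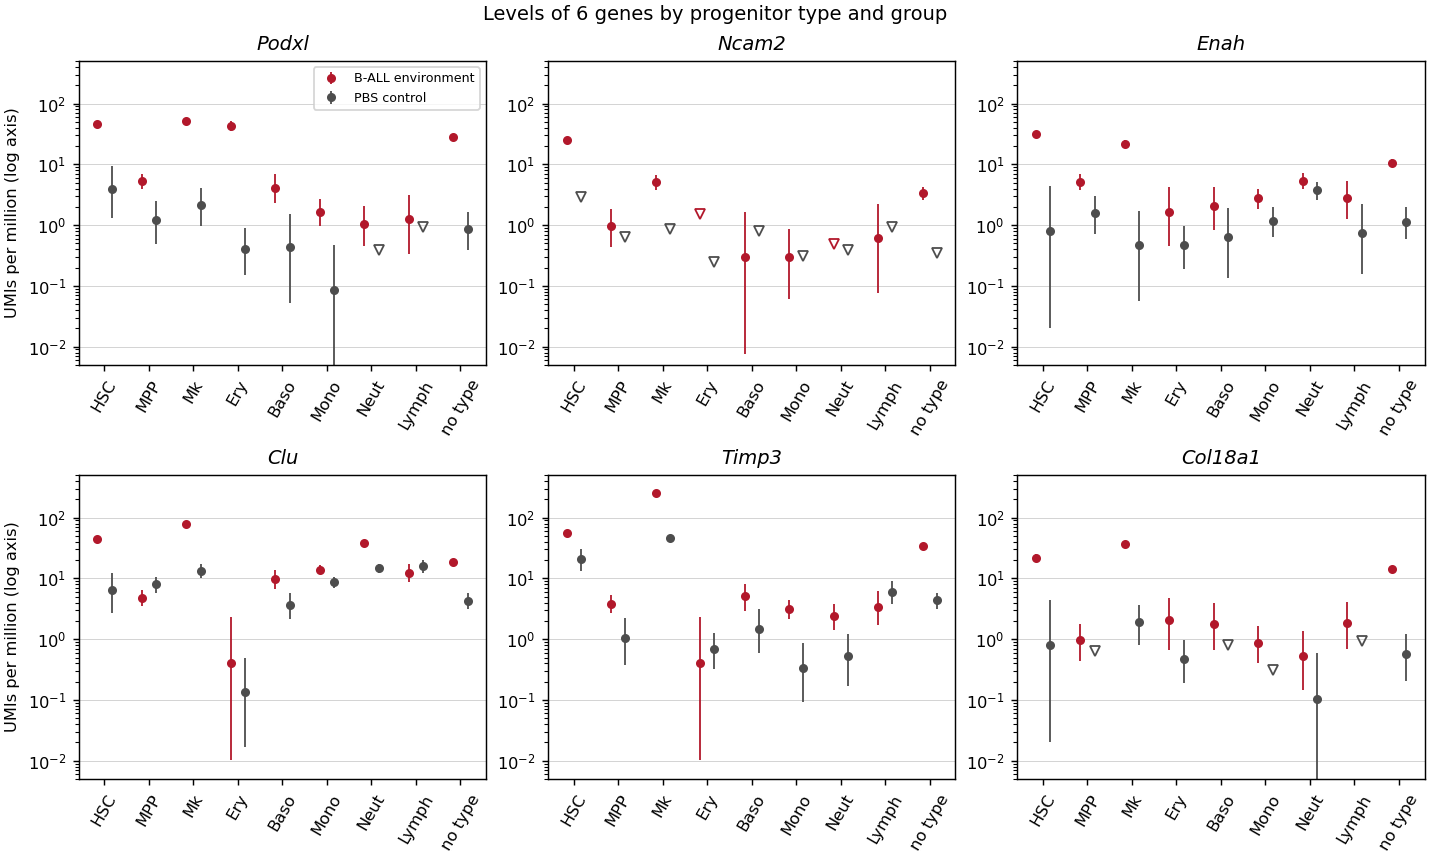
Level of each gene (CPM after TMM scaling, log axis) in HSC-like, multipotent progenitor-like (MPP), megakaryocyte-like (Mk), erythroid-like (Ery), basophil and mast cell-like (Baso), monocyte progenitor-like (Mono), neutrophil progenitor-like (Neut) and lymphoid-primed-like (Lymph) cells and cells with no type, in the B-ALL environment (red) and the PBS control (grey), with exact 95% Poisson intervals for counting error as bars and the upper bound of that interval as an open triangle where no UMI was counted. In erythroid-like cells of B-ALL marrow Podxl stood at 43.3 CPM, where Clu and Timp3 had 1 UMI each.

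Over all cells each of the 6 genes was at least 2-fold higher in B-ALL marrow, as were 7.39% of the 13978 genes compared, while 3.96% were at least 2-fold lower. In HSC-like cells all 6 were at least 2-fold higher, against 4.46% of 11454 genes higher and 2.41% lower. Nothing is read from these counts, since the genes were chosen on these contrasts. In megakaryocyte-like cells all 6 were at least 2-fold higher, against 2.64% of 11050 genes higher and 3.48% lower. In cells with no type all 6 were, against 4.27% higher and 2.78% lower. Cells of each type are part of the contrast over all cells, so nothing is read from the counts within types either. The median log2 fold of all genes was 0.0017 over all cells, 0.03 in HSC-like cells and 0.01 in megakaryocyte-like cells.

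In the other types only some of the 6 genes reached the 30 UMIs needed to be compared. In multipotent progenitor-like cells Podxl, Enah and Timp3 were at least 2-fold higher and Clu, the fourth compared, was not, against 2.51% of genes higher and 1.67% lower. Podxl alone was compared in erythroid-like cells and was higher, against 2.67% of genes higher and 5.07% lower. Clu alone was compared in basophil and mast cell-like cells and was higher, against 1.48% higher and 1.42% lower. In monocyte progenitor-like cells Enah and Timp3 were higher and Clu was not, against 1.24% higher and 2.22% lower. In neutrophil progenitor-like cells Clu was higher and Enah was not, against 1.49% higher and 1.99% lower. In lymphoid-primed-like cells neither Clu nor Timp3 was higher, against 1.60% higher and 1.46% lower. None of the 6 was at least 2-fold lower in a type where it was compared, and a gene that reached 30 UMIs through 1 group alone had to differ.

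Podxl, the sialomucin, was high in HSC-like, megakaryocyte-like and erythroid-like cells of B-ALL marrow. Over all cells it had 1763 UMIs in 986 cells of B-ALL marrow, with up to 12 in a cell, against 39 UMIs in 39 cells of PBS marrow. No cell of PBS marrow thus held more than 1 Podxl UMI. Its level was 22.9 CPM (21.8 to 24.0) in B-ALL marrow and 0.577 CPM (0.411 to 0.789) in PBS marrow, and its log2 fold was 5.31 (4.85 to 5.81), or 4.41 when both groups were given the same mix of types. In B-ALL marrow it stood at 51.8 CPM (47.4 to 56.5) in megakaryocyte-like, 46.4 CPM (42.6 to 50.5) in HSC-like and 43.3 CPM (35.4 to 52.4) in erythroid-like cells. Counting intervals did not separate these 3 levels. In PBS marrow Podxl stood at 2.13 CPM in megakaryocyte-like, 3.96 CPM in HSC-like and 0.410 CPM in erythroid-like cells. The next levels in B-ALL marrow were 28.2 CPM in cells with no type and 5.30 CPM in multipotent progenitor-like cells.

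Among the types with a Podxl UMI in PBS marrow, the fold was highest in erythroid-like cells, at 106 (46.9 to 294). It rests on 105 UMIs in 40 of 134 cells of B-ALL marrow and 6 UMIs in 6 of 1206 cells of PBS marrow. After thinning, 6.77% (3.14 to 12.5%) of erythroid-like cells of B-ALL marrow and 0.0829% (0.0021 to 0.461%) of those of PBS marrow had a Podxl UMI. Erythroid-like cells thus differed in Podxl at equal depth too; their median depth had been 15941 UMIs in B-ALL marrow and 10055.5 in PBS marrow. The other 5 genes had few UMIs in erythroid-like cells: none of Ncam2 in either group, and from 1 to 5 per gene in B-ALL marrow and from 2 to 10 per gene in PBS marrow. The Podxl fold was 11.7 (4.99 to 36.2) in HSC-like cells and 24.4 (12.7 to 53.6) in megakaryocyte-like cells. After thinning, Podxl was found in 13.4% (11.4 to 15.5%) of HSC-like cells of B-ALL marrow and 1.25% (0.152 to 4.44%) of those of PBS marrow. Among megakaryocyte-like cells the thinned share was 12.6% (10.1 to 15.5%) in B-ALL marrow and 1.31% (0.481 to 2.82%) in PBS marrow. Neutrophil progenitor-like cells, taken as the level that free RNA can give, held a Podxl UMI in 7 of 404 cells of B-ALL marrow, or 1.73%, at a median depth of 20106 UMIs, and in none of those of PBS marrow. HSC-like cells of B-ALL marrow held one in 28.7%, at a median of 7677.

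Ncam2, the neural adhesion molecule, was counted in B-ALL marrow and in no cell of PBS marrow. It had 421 UMIs in 284 cells of B-ALL marrow, while 0 of 5882 cells in PBS marrow allows a share with a UMI of up to 0.0510%. Against a floor of 3 UMIs for PBS marrow it was at least 123-fold higher over all cells. HSC-like cells held 70.1% of its UMIs, with 295 UMIs in 191 of 1109 cells and up to 6 in a cell. Its level in B-ALL marrow was 25.4 CPM (22.5 to 28.4) in HSC-like cells, against 5.07 CPM (3.76 to 6.68) in megakaryocyte-like cells, 3.34 CPM in cells with no type and 0.955 CPM in multipotent progenitor-like cells. Its highest level thus lay in HSC-like cells, beyond counting error. In HSC-like cells of PBS marrow 0 of 160 cells allows a share of up to 1.88%, and the fold there was at least 10.7. Neutrophil progenitor-like cells of B-ALL marrow had no Ncam2 UMI in 404 cells, which allows a share of up to 0.743%, against 17.2% of HSC-like cells.

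Enah, the actin regulator, was also highest in HSC-like cells of B-ALL marrow. It had 909 UMIs in 630 cells of B-ALL marrow and 87 UMIs in 80 cells of PBS marrow, a log2 fold of 3.20 (2.88 to 3.53). In B-ALL marrow its level was 31.2 CPM (28.1 to 34.6) in HSC-like and 21.7 CPM (18.9 to 24.8) in megakaryocyte-like cells, intervals that did not overlap. In PBS marrow HSC-like cells had 1 Enah UMI and megakaryocyte-like cells had 2, which gives ratios of 39.4 (7.02 to 1560) in HSC-like and 45.9 (12.6 to 382) in megakaryocyte-like cells. Its highest level in PBS marrow lay in neutrophil progenitor-like cells, which had 5.39 CPM (3.87 to 7.32) in B-ALL marrow and 3.76 CPM (2.64 to 5.21) in PBS marrow. The fold there, 1.43 (0.893 to 2.31), was within counting error. After thinning, 9.10% of HSC-like cells of B-ALL marrow and 0.625% of those of PBS marrow had an Enah UMI, against 0 of 402 neutrophil progenitor-like cells of B-ALL marrow and 1.21% of those of PBS marrow.

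Clu, the secreted chaperone, had more UMIs in PBS marrow than any other of the 6 and a pattern that differed between types. It had 2161 UMIs in 1060 cells of B-ALL marrow and 483 UMIs in 397 cells of PBS marrow, a log2 fold of 1.97 (1.83 to 2.12). In B-ALL marrow its level was 77.3 CPM (71.9 to 83.0) in megakaryocyte-like, 43.8 CPM (40.0 to 47.7) in HSC-like and 38.7 CPM (34.4 to 43.4) in neutrophil progenitor-like cells. The intervals of HSC-like and neutrophil progenitor-like cells overlapped. In PBS marrow the level was 13.5 CPM in megakaryocyte-like, 6.34 CPM in HSC-like, 14.8 CPM in neutrophil progenitor-like and 16.0 CPM (12.3 to 20.4) in lymphoid-primed-like cells. The Clu fold was 6.90 (3.48 to 16.1) in HSC-like, 5.74 (4.38 to 7.65) in megakaryocyte-like and 2.61 (2.12 to 3.21) in neutrophil progenitor-like cells. On the log2 scale the HSC-like fold of Clu was 2.79 (1.80 to 4.01), and 4.49 with HSC-like cells taken from clusters of the authors' map. In neutrophil progenitor-like cells the share with a Clu UMI was 44.6% in B-ALL marrow and 18.4% in PBS marrow before thinning. After thinning it was 8.46% (5.93 to 11.6%) in B-ALL marrow and 6.19% (4.48 to 8.31%) in PBS marrow, with intervals that overlapped. Multipotent progenitor-like cells went the other way, with 4.77 CPM in B-ALL marrow and 7.99 CPM in PBS marrow, a log2 fold of -0.74 (-1.37 to -0.12). The thinned shares of multipotent progenitor-like cells with a Clu UMI were 1.25% (0.626 to 2.23%) in B-ALL marrow and 2.69% (1.58 to 4.28%) in PBS marrow. The share was thus also lower in B-ALL marrow, with intervals that overlapped. In lymphoid-primed-like cells the log2 fold was -0.36 (-0.97 to 0.23), within counting error. Clu had 1 UMI in erythroid-like cells of B-ALL marrow and 2 in those of PBS marrow.

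Timp3, the metalloproteinase inhibitor, was highest in megakaryocyte-like cells in both groups. It had 3912 UMIs in 1041 cells of B-ALL marrow and 322 UMIs in 173 cells of PBS marrow, a log2 fold of 3.41 (3.25 to 3.58), or 2.26 with the same mix of types in both groups. Megakaryocyte-like cells held 64.0% of its UMIs in B-ALL marrow and 60.2% in PBS marrow. Their level was 254 CPM (244 to 264) in B-ALL marrow and 45.8 CPM (39.6 to 52.8) in PBS marrow, a fold of 5.54 (4.78 to 6.44). Cells of this type held up to 88 Timp3 UMIs in B-ALL marrow and up to 14 in PBS marrow, and over all types the 10 richest cells held 11.5% of the Timp3 UMIs of B-ALL marrow and 22.4% of those of PBS marrow. Next came HSC-like cells, with 56.6 CPM (52.3 to 61.1) in B-ALL marrow and 20.6 CPM (13.5 to 30.2) in PBS marrow. The fold in HSC-like cells was 2.75 (1.86 to 4.24), and its counting interval lay below that of megakaryocyte-like cells. On the log2 scale it was 1.46 (0.89 to 2.08), and 2.70 (2.05 to 3.42) when HSC-like cells were taken instead from clusters of the authors' map. In lymphoid-primed-like cells Timp3 had 11 UMIs in B-ALL marrow and 24 in PBS marrow, a log2 fold of -0.81 (-1.99 to 0.28), within counting error. Timp3 was itself among the 10 leading genes of the megakaryocyte-like cells, although it did not serve to define them.

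Col18a1, the basement membrane collagen, had few UMIs in PBS marrow. It had 919 UMIs in 531 cells of B-ALL marrow, with up to 13 in a cell, and 23 UMIs in 23 cells of PBS marrow, a log2 fold of 5.13 (4.54 to 5.80), or 4.43 with an equal mix of types. In B-ALL marrow its level was 37.1 CPM (33.4 to 41.1) in megakaryocyte-like, 21.9 CPM (19.3 to 24.8) in HSC-like and 14.2 CPM (12.5 to 16.0) in cells with no type, and these intervals did not overlap. In PBS marrow megakaryocyte-like cells had 8 Col18a1 UMIs, HSC-like cells 1 and cells with no type 6. The ratio was 19.6 (9.86 to 45.8) in megakaryocyte-like cells and 27.7 (4.92 to 1097) in HSC-like cells, where it rests on that 1 UMI. In the other types of B-ALL marrow Col18a1 had between 0.526 and 2.06 CPM, on 4 to 9 UMIs each.

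The likeness of patterns was measured as the Pearson r of log2(CPM + 10) over 16 combinations of type and group, which share their libraries. The difference between the groups, on which the 6 genes were chosen, is part of these combinations. A high r among the 6 was therefore partly set by that choice, and nothing is read from it. Among the 6 genes, Enah and Col18a1 had the highest r, 0.905, then Ncam2 and Enah with 0.895 and Timp3 and Col18a1 with 0.881. The lowest r, 0.414, was between Podxl and Clu. Candidates were 8780 or 8781 other genes whose mean over all cells reached 10 CPM. Those most like Podxl were Idi1, an enzyme of isoprenoid synthesis (r = 0.940), Nupr1, a stress-induced chromatin protein (0.894), and Cish, a cytokine feedback inhibitor (0.889). Those most like Ncam2 were Socs2, a further inhibitor of cytokine signaling (0.882), Flywch1 (0.850) and Ccdc91 (0.832). Those most like Enah were Ccdc91 (0.920), the ubiquitin ligase gene Wwp2 (0.885) and Slfn2, of the Schlafen family (0.878). Those most like Clu were Bod1 (0.835), Gmds (0.827) and Slfn9 (0.823). Those most like Timp3 were Vwf (0.934), the dynein light chain gene Dynll2 (0.931) and Cavin2, a coat protein of caveolae (0.927), and those most like Col18a1 were Ccdc91 (0.966), Timp3 (0.881) and Nupr1 (0.874).

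**Figure D2:**
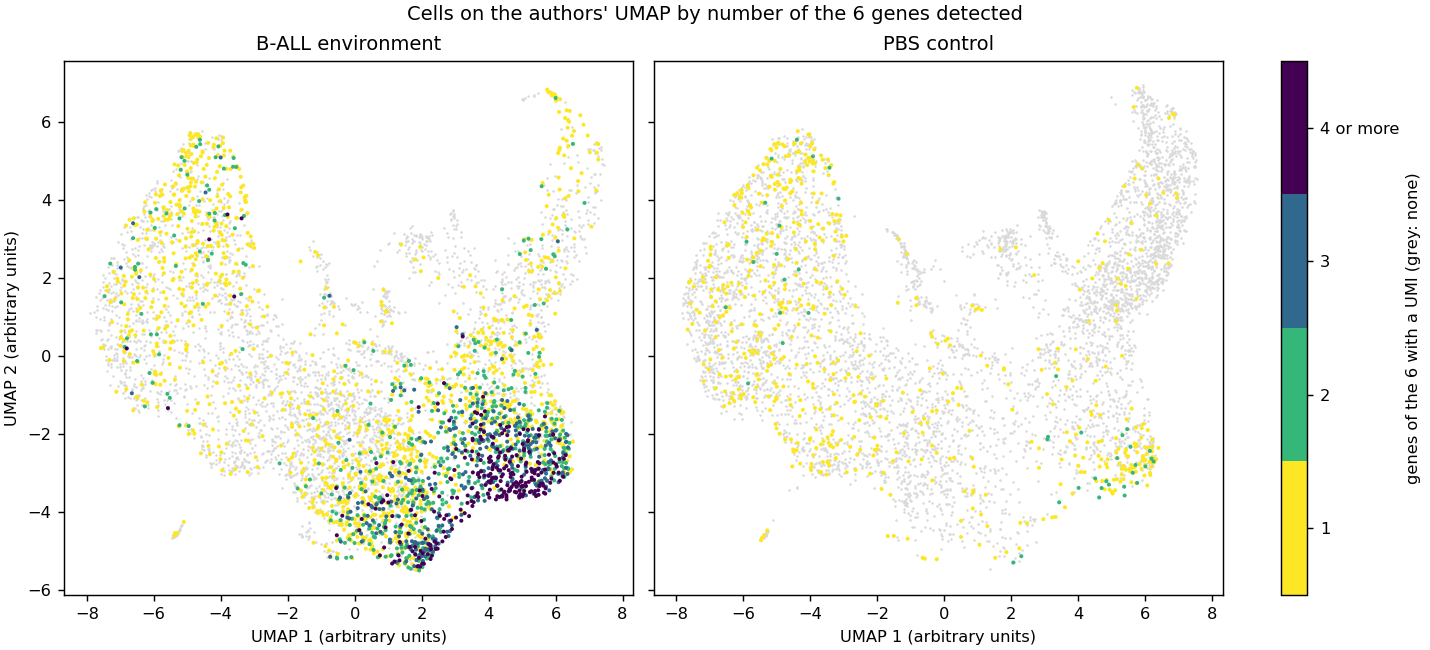
Each point is a cell at its place on the authors' UMAP (arbitrary units on both axes), in the B-ALL environment (left) and the PBS control (right), coloured by how many of the 6 genes had a UMI, with grey for none. All 280 cells with 4 or more are in the B-ALL environment, and most of them lie in the lower right of the map.

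Many cells of B-ALL marrow held several of the 6 genes. In B-ALL marrow 2459 cells had at least 1 of them, 1095 at least 2 and 583 at least 3, while in PBS marrow 669 cells had at least 1, 43 at least 2 and 0 at least 3. Of the 280 cells with 4 or more, all in B-ALL marrow, 106 were HSC-like, 118 megakaryocyte-like and 52 of no type, and 23 cells held all 6. Among HSC-like cells, 63.3% in B-ALL marrow and 16.2% in PBS marrow had at least 1 of the genes, and 19.7% in B-ALL marrow and 0 of 160 in PBS marrow had at least 3. Among megakaryocyte-like cells, 78.6% in B-ALL marrow and 26.4% in PBS marrow had at least 1, and 34.4% in B-ALL marrow and 0 of 459 in PBS marrow had at least 3. These shares were also apart at equal depth. Thinned to 3000 UMIs, 41.6% (38.6 to 44.6%) of HSC-like cells of B-ALL marrow and 11.2% (6.81 to 17.2%) of those of PBS marrow had at least 1. Among megakaryocyte-like cells the thinned share was 51.7% (47.8 to 55.7%) in B-ALL marrow and 12.2% (9.35 to 15.6%) in PBS marrow. In neutrophil progenitor-like cells it was 9.20% (6.56 to 12.5%) in B-ALL marrow and 7.85% (5.92 to 10.2%) in PBS marrow, with intervals that overlapped. Thinned values leave out cells shallower than 3000 UMIs, 179 in B-ALL marrow and 0 in PBS marrow.

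**Figure D3:**
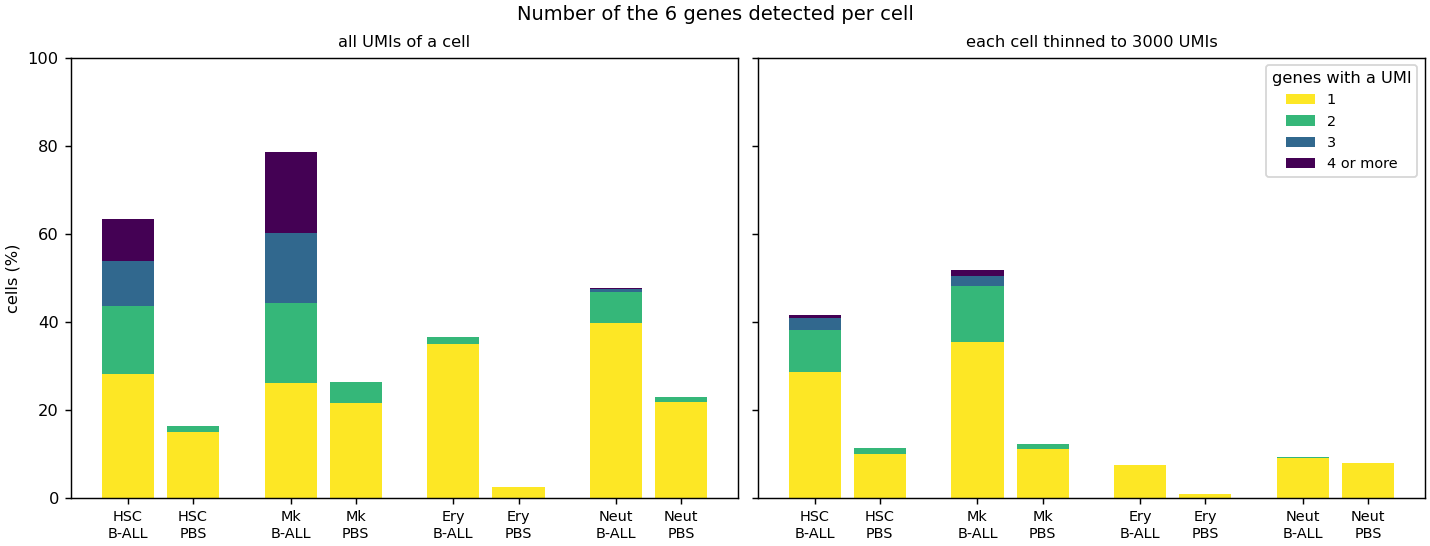
Share of cells (%) with a UMI of 1, 2, 3 or at least 4 of the 6 genes in HSC-like, megakaryocyte-like (Mk), erythroid-like (Ery) and neutrophil progenitor-like (Neut) cells of the B-ALL environment and the PBS control, with all UMIs (left) and with each cell thinned to 3000 UMIs (right). Before thinning, 78.6% of megakaryocyte-like cells of B-ALL marrow and 26.4% of those of PBS marrow had at least 1.

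Within HSC-like cells of B-ALL marrow, cells with a UMI of a given gene more often had the others. Of 318 HSC-like cells with Podxl, 37.7% (32.4 to 43.3%) also had Enah, against 16.3% (13.8 to 19.1%) of those without Podxl. Of 228 with Clu, 50.9% (44.2 to 57.5%) had Timp3, against 24.0% (21.2 to 26.9%) of those without Clu. Col18a1 was found in 31.6% (25.6 to 38.0%) of the cells with Clu and 8.29% (6.55 to 10.3%) of those without. All 15 pairs had a higher share with than without, and in 14 the intervals did not overlap, the exception being Col18a1 at 17.8% in cells with Ncam2 and 12.1% in those without. Depth moved with this: HSC-like cells with Podxl had a median of 10628.5 UMIs and those without 6850. After thinning, 14 of 15 pairs were still higher with than without, and 5 had intervals that did not overlap. Thinned, Clu was found in 22.4% (14.6 to 32.0%) of HSC-like cells with Enah and 8.68% (6.99 to 10.6%) of those without, and Timp3 in 28.0% (19.8 to 37.5%) of those with Clu and 12.3% (10.3 to 14.5%) of those without. The pair that was lower was Ncam2 and Col18a1. Col18a1 was in 2.41% (0.293 to 8.43%) of cells with Ncam2 and 4.93% (3.67 to 6.46%) of those without, with intervals that overlapped. In megakaryocyte-like cells of B-ALL marrow all 15 pairs were higher with than without, 14 with intervals apart. After thinning again all 15 were higher, 4 with intervals apart. Pairs were formed among these 6 genes only, so no share over pairs of other genes stands beside these counts. Nothing particular to the 6 genes is read from them.

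**Figure D4:**
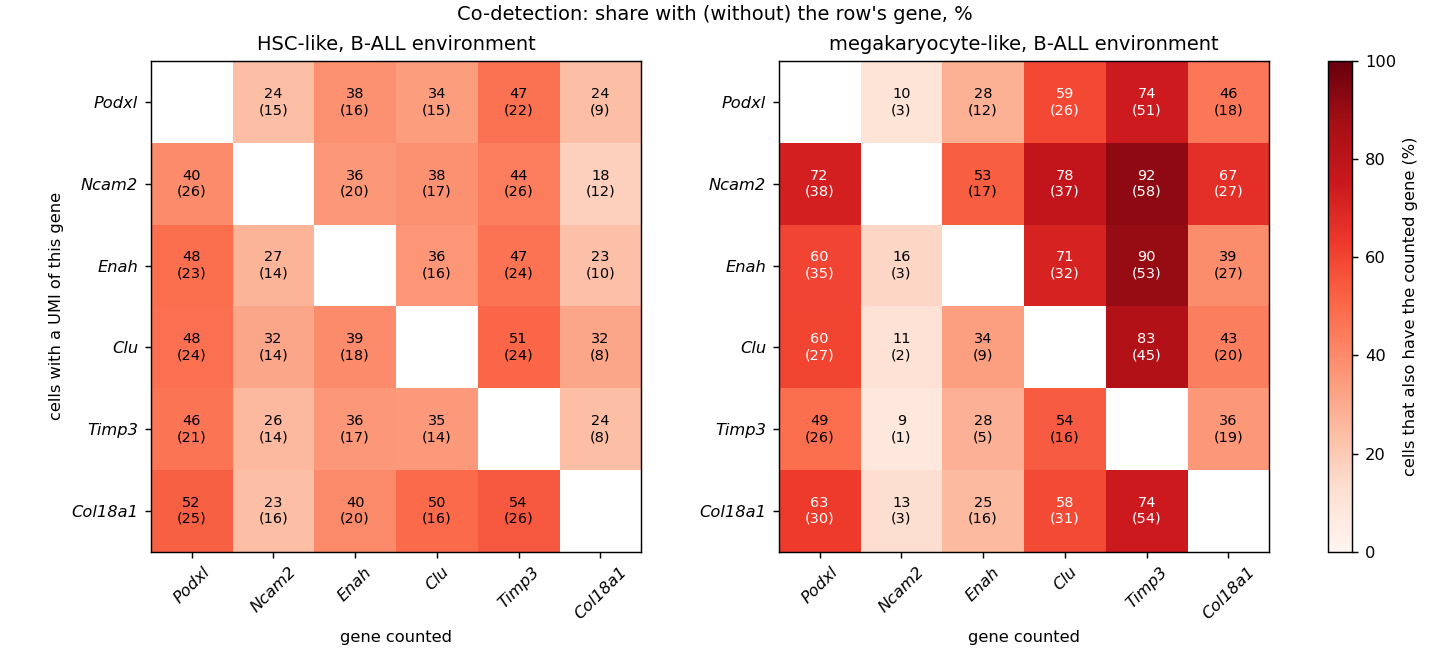
In HSC-like (left) and megakaryocyte-like (right) cells of the B-ALL environment, the share (%) of cells with a UMI of the row's gene that also had a UMI of the column's gene, with the share among cells without the row's gene in brackets; colour shows the first share. In HSC-like cells the share with Timp3 was 50.9% among cells with Clu and 24.0% among cells without Clu.

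HSC-like cells of B-ALL marrow with a UMI of Vwf, the gene most like Timp3, had higher levels of all 6 genes than those without. A Vwf UMI was found in 230 of 1109 HSC-like cells of B-ALL marrow and 14 of 160 of PBS marrow. In B-ALL marrow Clu stood at 111 CPM (99.3 to 124) in HSC-like cells with Vwf and 20.8 CPM (17.8 to 24.0) in those without. Col18a1 stood at 48.6 CPM (41.0 to 57.2) with Vwf and 12.8 CPM (10.5 to 15.4) without, and Podxl at 73.6 CPM (64.1 to 84.0) with Vwf and 37.1 CPM (33.2 to 41.4) without. The intervals were apart for each of the 6 genes. The split was made for these 6 genes only, so no share over all genes stands beside this. Cells with Vwf were also deeper, with a median of 9265 UMIs against 7359 without. When cells were thinned and then split, the intervals were apart for Clu, with 26.1% (18.3 to 35.1%) with Vwf and 8.0% (6.37 to 9.90%) without, and for Col18a1, with 11.3% (6.16 to 18.6%) with Vwf and 3.95% (2.81 to 5.38%) without. For Podxl the thinned shares were 13% (7.49 to 20.6%) with Vwf and 13.4% (11.3 to 15.7%) without.

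HSC-like cells without Vwf also differed between the groups. Podxl stood at 37.1 CPM (33.2 to 41.4) in those of B-ALL marrow and 3.51 CPM (0.955 to 8.98) in those of PBS marrow, and Timp3 at 43.9 CPM (39.7 to 48.6) in B-ALL marrow and 21.9 CPM (14.2 to 32.4) in PBS marrow. Ncam2 (19.3 CPM), Enah (24.6 CPM) and Col18a1 (12.8 CPM) were present in those of B-ALL marrow and had no UMI in the 146 of PBS marrow. In megakaryocyte-like cells of PBS marrow, Clu had 26.4 CPM (19.7 to 34.7) with Vwf and 2.61 CPM (0.957 to 5.68) without, and Timp3 80.2 CPM (68.1 to 93.9) with Vwf and 16.9 CPM (12.1 to 23.2) without. In these megakaryocyte-like cells of PBS marrow both genes were higher with Vwf, and the cells with Vwf were also deeper, with a median of 9628.5 UMIs against 7194 without. HSC-like cells of PBS marrow with Vwf were 14, and in them Timp3 had 1 UMI, or 8.24 CPM (0.209 to 45.9), against 21.9 CPM without Vwf.

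**Figure D5:**
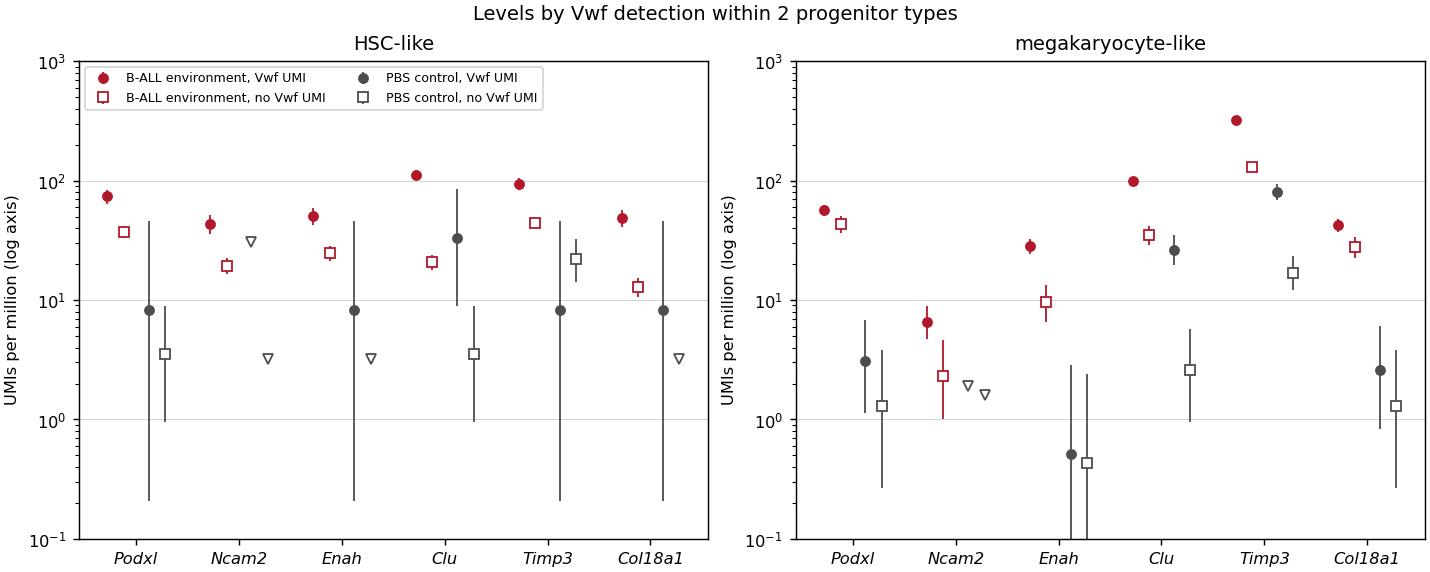
Level of each gene (CPM after TMM scaling, log axis) in HSC-like (left) and megakaryocyte-like (right) cells with a Vwf UMI (filled circles) and without (open squares), in the B-ALL environment (red) and the PBS control (grey), with exact 95% Poisson intervals for counting error as bars and the upper bound of that interval as an open triangle where no UMI was counted. In HSC-like cells of B-ALL marrow Clu stood at 111 CPM with Vwf and 20.8 CPM without.

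Clusters of the authors' map are a separate grouping of the cells. Those named HSC-like held 1125 cells of B-ALL marrow and 330 of PBS marrow, against 1109 and 160 by the marker score. The clusters were formed from the UMAP coordinates. The genes behind the coordinates are not given in the sources used here and may include these 6. What follows is therefore a description, with levels as CPM without TMM scaling. A cluster of 205 cells of B-ALL marrow and 37 of PBS marrow, led by Socs2, Slfn2 and Cish and with Ncam2 among its 10 leading genes, had 87.9 CPM (74.3 to 103) of Ncam2 and 83.2 CPM (69.9 to 98.2) of Enah in B-ALL marrow. A cluster led by Ly6a and Ltb, with the interferon-induced genes Iigp1 and Ifit1 among its 10 leading genes, had 17.5 CPM (13.9 to 21.8) of Ncam2 and 24.3 CPM (20.0 to 29.3) of Enah in B-ALL marrow. The remaining HSC-like cluster, led by Slfn2, had 16.8 CPM (12.6 to 21.9) of Ncam2 and 28.7 CPM (23.1 to 35.1) of Enah in B-ALL marrow. In B-ALL marrow Clu was at 74.8 CPM (62.2 to 89.1) in the Socs2-led and 5.48 CPM (3.55 to 8.10) in the Ly6a-led cluster, while Podxl was at 67.6 CPM (55.7 to 81.3) in the Socs2-led and 43.2 CPM (37.4 to 49.7) in the Ly6a-led cluster. The cluster with the highest Podxl level in B-ALL marrow, 102 CPM (94.3 to 111), held 397 cells of B-ALL marrow and 165 of PBS marrow and was led by Timp3, Cavin2 and Vwf, with Clu, Podxl and Col18a1 among its first 10 genes. In its PBS marrow cells Podxl stood at 5.09 CPM and Col18a1 at 0.636 CPM, and Enah had no UMI.

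The map clusters named erythroid-like are not the same cells as the erythroid-like type above. They held 450 cells of B-ALL marrow and 1439 of PBS marrow, against 134 and 1206 by the marker score. Of these clusters in B-ALL marrow, that led by Mt2 and Car1 had the highest Podxl level and the lowest Col18a1 and Timp3 levels. The other clusters overlapped in their intervals for each of these genes. Podxl had 12.1 CPM (8.01 to 17.7) in the cluster led by Csrp3 and Trib2, 23 UMIs with an interval of 8.26 to 19.6 CPM in that led by Car1 and Trib2, and 47.9 CPM (38.4 to 59.0) in that led by Mt2 and Car1, the highest of the 3 in erythroid markers. Col18a1 had 14.4 CPM (9.85 to 20.3) in the Csrp3-led, 6.23 CPM (3.11 to 11.2) in the Car1-led and 1.09 CPM (0.132 to 3.93) in the Mt2-led cluster. The Mt2-led cluster held 67 cells of B-ALL marrow and 304 of PBS marrow, and in its PBS marrow cells Podxl had 0.446 CPM.

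Other genes of adhesion and matrix are given from lists of related proteins. Of 16 matrix proteins 6 were at least 2-fold higher and 2 lower over all cells, with a median log2 fold of 0.50, against 7.39% of all genes higher and 3.96% lower. In HSC-like cells 6 of 10 were higher and 1 lower, with a median of 1.15, against 4.46% of all genes higher and 2.41% lower. With no filter on low counts, 9 of 16 were higher and 3 lower there. The same shares over all genes stand beside the counts of the lists that follow. The higher genes in HSC-like cells were Col4a1, Col4a2, Ecm1, Lamb2, Fn1 and Tgfbi, and the last 3 rest on 1 to 5 UMIs each in PBS marrow, with intervals that include no change. Col4a1, a chain of basement membrane collagen IV, had 64.2 CPM in HSC-like cells of B-ALL marrow and 26.9 CPM in those of PBS marrow, a log2 fold of 1.25 (0.76 to 1.79). Col4a2, its partner chain, had 60.9 CPM in B-ALL marrow and 18.2 CPM in PBS marrow, a log2 fold of 1.74 (1.14 to 2.41). Col5a1, of a fibrillar collagen, was lower over all cells, with 2.48 CPM in B-ALL marrow and 18.3 CPM in PBS marrow, as was Thbs1, which encodes the adhesive protein thrombospondin 1. In HSC-like cells Thbs1 had 1.55 CPM in B-ALL marrow and 12.7 CPM in PBS marrow.

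Of 17 adhesion molecules of the immunoglobulin family 7 were higher and 1, Nectin2, lower over all cells, with a median log2 fold of 0.72. In HSC-like cells 1 of 12 was higher, with a median of 0.34. That gene was Esam, an adhesion molecule of vessel lining and stem cells, with 74.8 CPM in HSC-like cells of B-ALL marrow and 33.3 CPM in those of PBS marrow, a log2 fold of 1.17 (0.72 to 1.65). In the same cells Icam1 had a log2 fold of 0.64 (0.04 to 1.30), Alcam of 0.39 (0.02 to 0.79) and Icam2 of 0.13 (-0.24 to 0.53).

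Of 12 sialomucins and linkers of podocalyxin to actin, 2, Emcn and Slc9a3r2, were higher over all cells and none lower, with a median log2 fold of -0.03. In HSC-like cells 0 of 11 passed 2-fold either way, with a median of 0.15. Cd34, the relative of Podxl and one of the markers that placed cells among multipotent progenitors, had 204 CPM in HSC-like cells of B-ALL marrow and 330 CPM in those of PBS marrow, a log2 fold of -0.69 (-0.85 to -0.54), and Slc9a3r1, which encodes the adaptor NHERF1, was at 0.14 (-0.15 to 0.44). Over all cells Cd164 was at -0.21 and Cd24a at 0.27.

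Of 12 metalloproteinases and inhibitors 2, Mmp2 and Adamts1, were higher and 1, Mmp14, lower over all cells, with a median log2 fold of 0.21. In HSC-like cells 0 of 9 passed 2-fold either way, with a median of 0.10. Timp2, the relative of Timp3, had 42.7 CPM in HSC-like cells of B-ALL marrow and 42.8 CPM in those of PBS marrow. Adam17, a sheddase that TIMP3 inhibits, had a log2 fold of -0.36 (-0.78 to 0.08) in HSC-like cells, Adam15 of -0.79 (-1.46 to -0.07) and Adamts10 of 0.55 (0.13 to 0.99).

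Of 13 Ena/VASP proteins and partners 1, Lpp, was higher over all cells and none lower, with a median log2 fold of 0.16. Lpp, of focal adhesions, was at 1.14 (1.02 to 1.26) over all cells and 0.27 (-0.14 to 0.70) in HSC-like cells. In HSC-like cells 1 of 12, Evl, was higher, on 5 UMIs in PBS marrow, with a median of -0.06. Vasp, the relative of Enah, was at -0.08 (-0.32 to 0.17) there, Zyx at -0.14 (-0.36 to 0.09) and Pfn1, which encodes the actin monomer carrier profilin 1, at 0.39 (0.32 to 0.46).

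Of 15 integrins 1, Itgb3, was higher over all cells and 2, Itgal and Itga1, lower, with a median log2 fold of 0.02. In HSC-like cells 1 of 13 was lower, or 3 of 15 with no filter on low counts, with a median of -0.16 after the filter. Itgal, the lower gene and a chain of a leukocyte integrin, had 2.58 CPM in B-ALL marrow and 21.4 CPM in PBS marrow. In megakaryocyte-like cells 4 of 12, Itga2, Itgal, Itgam and Itgb7, were lower, with a median of -0.62, against 3.48% of all genes lower and 2.64% higher. The chains of the platelet integrin stood there at -0.40 (-0.50 to -0.31) for Itga2b, itself a marker that placed these cells, and 0.33 (0.11 to 0.56) for Itgb3. Itga6, a laminin receptor chain, was at 0.60 (0.54 to 0.66) over all cells and 0.28 (0.02 to 0.55) in HSC-like cells.

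Of 8 chaperones and lipoprotein receptors 2, Vldlr and Serpinh1, were higher and 1, Apoe, lower over all cells, with a median log2 fold of 0.35. In HSC-like cells 2 of 7 were higher and none lower, with a median of 0.19, or 3 of 8 higher with no filter on low counts. Serpinh1, a collagen chaperone, was higher there, on 1 UMI in PBS marrow. Apoe, a lipid carrier, had 402 CPM in B-ALL marrow and 920 CPM in PBS marrow over all cells. On the log2 scale Vldlr, a lipoprotein receptor, differed by 1.38 (1.27 to 1.49) across all cells and by -0.02 (-0.41 to 0.40) in HSC-like cells. Lrp8, a further receptor of this family, differed by 0.24 (0.15 to 0.33) across all cells and 0.21 (-0.33 to 0.79) in HSC-like cells.

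Markers of other cells are given beside these levels, although a sort for KIT+ cells free of lineage markers and positive for CD45.1 is meant to remove stroma, vessel lining and mature B cells, T cells and macrophages. Of 12 stromal and endothelial markers the matrix lacked 6, Cdh5, Cxcl12, Lepr, Col1a1, Col3a1 and Pdgfra. The other 6 were analysed here, and none was at 0. Their summed level was 47.9 CPM in B-ALL marrow and 39.5 CPM in PBS marrow over all cells, and 65.2 CPM in B-ALL marrow and 78.4 CPM in PBS marrow in HSC-like cells. Over all cells Pdgfrb had the largest part of the sum, with 22.6 CPM in B-ALL marrow and 23.5 CPM in PBS marrow. Col1a2, a collagen of stroma, had 1.81 CPM in B-ALL marrow and 2.00 CPM in PBS marrow. Kdr, a receptor of vessel lining, had 2.91 CPM in B-ALL marrow and 0.696 CPM in PBS marrow. Tek had 8.42 CPM in B-ALL marrow and 4.94 CPM in PBS marrow, and Emcn 11.7 CPM in B-ALL marrow and 5.24 CPM in PBS marrow. Sele went the other way, with 0.442 CPM in B-ALL marrow and 3.17 CPM in PBS marrow. In B-ALL marrow 14.2% of the 1095 cells with at least 2 of the 6 genes had at least 2 of these markers, against 8.23% of all its cells, and in PBS marrow 6.98% of 43 such cells did, against 4.47% of all its cells. Tek and Emcn, which are also genes of blood stem cells, are among the markers analysed, and Emcn and Col1a2 are also in the lists above. Macrophage markers, 6 of 7 analysed, summed to 9.79 CPM in B-ALL marrow and 6.65 CPM in PBS marrow. B cell markers, 5 of 9, summed to 444 CPM in B-ALL marrow and 134 CPM in PBS marrow. Of these Igkc had 298 CPM in B-ALL marrow and 0.148 CPM in PBS marrow. In HSC-like cells the B cell markers summed to 43.9 CPM in B-ALL marrow and 52.3 CPM in PBS marrow. Cells with at least 2 of the 5 were 13.7% of B-ALL marrow cells and 16.9% of PBS marrow cells. Among cells with at least 2 of the 6 genes they were 4.38% in B-ALL marrow and 18.6% in PBS marrow. T and NK cell markers, 3 of 7, summed to 249 CPM in B-ALL marrow and 326 CPM in PBS marrow. Most of that sum was Nkg7, with 245 CPM in B-ALL marrow and 324 CPM in PBS marrow. Trbc2 went the other way, with 2.95 CPM in B-ALL marrow and 1.44 CPM in PBS marrow. So did Klrb1c, with 1.39 CPM in B-ALL marrow and 0.340 CPM in PBS marrow. Cells with at least 2 of the 3 were 1.63% of B-ALL marrow cells and 0.561% of PBS marrow cells. The part of any of these cells in the levels of the 6 genes was not tested.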

How the data were processed

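Host marrow progenitors were sequenced in 4 labelled samples of 2 groups. Per the submitters' processing notes, Cell Ranger 4, Seurat 4.0.1 and the mm10 build were used; cell and gene filters are not given in the sources used here. The deposited values are raw counts of UMIs, not normalized by the authors, and their sum in each cell equalled the authors' total for it. The deposited UMAP coordinates are a score without a fixed unit. The cell prefix tm was taken to mean the tumor environment. The 6 genes and the lists were chosen with earlier results of these data known.

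Markers (UMIs per 10000, log, divided by the SD) were averaged per list and standardised over all cells. A cell took the type with the highest score if that was at least 1 and at least 2 markers had a UMI. It was near a boundary within 0.25 of that value or of the next type. For r, types needed 30 cells in each group. Summed UMIs were scaled with TMM in edgeR 4.0.16 (R 4.3.3), and DESeq2 1.42.0 gave size factors only. Genes with at least 30 UMIs were compared, with 0.5 UMIs added for medians and for counts of genes past 2-fold. Intervals are exact Poisson, conditional binomial or Clopper-Pearson (scipy 1.17.1) at 95%. The floor for a group with no UMI was 3 UMIs. Thinning drew UMIs at random without replacement. Clusters of the UMAP (scanpy 1.11.5, igraph 0.11.9, 30 neighbours, resolution 0.3) were an alternative. No doublet caller was run; an alternative left out the 5% of cells with the most UMIs. Folds, intervals and thinning were tested on simulated data. The planned edgeR and DESeq2 tests were not run, since each group is 1 sample.

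Named genes were the 6, up to 4 genes per list with a mean of at least 10 CPM and the largest change over all cells, the 3 genes most like each of the 6, Kit and Ptprc. Other list genes, the split by Vwf and leading genes of clusters were chosen after their values were seen. One gene that this rule names is not reported here.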

Additional observations from a re-analysis of the deposited data

Results flagged for a closer look

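The level of Clu differed between the groups in opposite directions in different progenitor types, and the difference between types was not tested. Its log2 fold was -0.74 (-1.37 to -0.12) in multipotent progenitor-like cells, on 45 UMIs in B-ALL marrow and 46 in PBS marrow. In HSC-like cells it was 2.79 (1.80 to 4.01), in megakaryocyte-like cells 2.52 (2.13 to 2.94) and in neutrophil progenitor-like cells 1.38 (1.09 to 1.68). Of 1527 multipotent progenitor-like cells 549 lay near a boundary of the marker score. The thinned shares of these cells with a Clu UMI were 1.25% (0.626 to 2.23%) in B-ALL marrow and 2.69% (1.58 to 4.28%) in PBS marrow. The share was thus also lower in B-ALL marrow, with intervals that overlapped. Of the 2 map clusters of this type, the one led by Tespa1 had 2.27 CPM (1.13 to 4.06) in B-ALL marrow and 5.15 CPM (3.10 to 8.05) in PBS marrow. The one led by Igkc had 8.88 CPM (4.97 to 14.6) in B-ALL marrow and 6.43 CPM (2.58 to 13.2) in PBS marrow. These rest on 15 and 7 UMIs with overlapping intervals, so no direction is read from them. A map cluster with no type, highest in multipotent progenitor markers, had 2.99 CPM (1.55 to 5.22) in B-ALL marrow and 6.93 CPM (3.96 to 11.3) in PBS marrow.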

How the results depend on the processing

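Of 90 folds recomputed under alternatives, none changed sign, 83 stayed within the counting interval of the reported value and 7 did not, with the interval of Ncam2 taken at the floor of 3 UMIs. With the same mix of types in both groups, the log2 folds over all cells were 4.41 for Podxl, 1.64 for Clu, 2.26 for Timp3 and 4.43 for Col18a1. Without the 5% of cells with the most UMIs, Timp3 was at 3.17. With HSC-like cells taken from map clusters, Clu was at 4.49 and Timp3 at 2.70. Over all alternatives the HSC-like log2 folds ranged from 3.31 to 3.88 for Podxl, 4.5 to 5.56 for Enah and 3.69 to 4.79 for Col18a1, and the bound for Ncam2 from 2.82 to 4.69. The lower ends for Enah and Ncam2 came from a stricter marker score (at least 1.5 and 0.25 above the next type), which also gave 3.75 for Col18a1 and 1.0 for Timp3. Leaving out the cells whose barcode was in both groups was chosen after seeing the data. With no filter on low counts, the lists held 21 higher and 7 lower genes over all cells, as with it. In HSC-like cells they then held 14 higher and 7 lower, against 10 higher and 2 lower with the filter, and in megakaryocyte-like cells 7 higher and 15 lower, against 5 higher and 7 lower. No paired analysis was possible because the cells carry no sample number, and for the same reason leaving out each sample and the DESeq2 test were not run. Folds in HSC-like cells rest on 160 cells of PBS marrow, with 0 to 26 UMIs per gene.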
